A study of Mus musculus with 5 samples.

Results

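The activity-induced immediate early genes described here are 36 genes listed by symbol, 19 transcription factors and 17 effectors, of the 17742 genes that the array measures. All 36 have a probe, 28 of them 1 probe and 8 of them 2, and the probe with the highest mean over all mice stands for a gene unless another is named. RNA of striatum was measured in 5 male FVB mice aged 12 months on a single-colour array. All 5 carried a Huntington's disease transgene, in which GFP is joined to exon 1 of the human HTT gene, 84 CAG repeats long, and a human ubiquitin promoter drives expression. The HD_miR196a mice (n = 3) came from crossing this line with mice that carry a miR-196a precursor, also behind a human ubiquitin promoter. The HD mice (n = 2) carried the HD transgene alone. Neither promoter is specific to neurons, and mice lacking the HD transgene were not analysed here, so HD striatum is nowhere set against healthy striatum. The submitters describe the motor function of the HD_miR196a mice as improved and that of the HD mice as weak.

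Immediate early genes are switched on within minutes of synaptic activity by calcium and MAP kinase signals that act on the transcription factors CREB and SRF already present in the cell, without new protein synthesis. Their transcripts are short-lived. In striatum they are known for their response to cortical glutamate and to dopamine, and in neurons their products either regulate later genes (the Fos, Jun, Egr and Nr4a families) or act on synapses and signalling (Arc, the Dusp phosphatases).

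The agent that distinguishes the groups is miR-196a, whose mature mouse sequence from RefSeq (GRCm38.p6) is the same from the genes on chromosomes 11 and 15. Its seed, bases 2 to 8, is in capitals, and the labels do not say whether the transgene holds the mouse or another precursor.
mmu-miR-196a-5p: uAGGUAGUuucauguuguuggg

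The promoters of Fos, Dusp1 and Junb are shown because they are the 3 members with the largest difference between the groups among those with a bright probe and a RefSeq promoter entry that can be printed. Each run is the 250 bases before the annotated start, 5′ to 3′ on the gene's strand, from RefSeq on GRCm38.p6. Capitals mark the CREB site TGACGTCA or its core CGTCA (which the full site also holds) on either strand, and the TATA box TATAAA.
Fos, chr12:85473640-85473889, plus strand: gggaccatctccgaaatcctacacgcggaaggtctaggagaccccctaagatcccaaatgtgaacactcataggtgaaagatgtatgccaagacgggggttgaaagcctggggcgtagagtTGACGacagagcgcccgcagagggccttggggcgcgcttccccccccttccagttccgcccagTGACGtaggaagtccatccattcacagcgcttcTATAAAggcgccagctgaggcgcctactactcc
Dusp1, chr17:26508473-26508722, minus strand: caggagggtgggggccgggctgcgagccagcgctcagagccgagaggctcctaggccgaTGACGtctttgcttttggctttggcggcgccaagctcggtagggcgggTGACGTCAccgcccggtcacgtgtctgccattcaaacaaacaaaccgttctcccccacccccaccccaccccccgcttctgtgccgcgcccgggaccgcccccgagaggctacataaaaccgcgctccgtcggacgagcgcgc
Junb, chr8:84978749-84978998, minus strand: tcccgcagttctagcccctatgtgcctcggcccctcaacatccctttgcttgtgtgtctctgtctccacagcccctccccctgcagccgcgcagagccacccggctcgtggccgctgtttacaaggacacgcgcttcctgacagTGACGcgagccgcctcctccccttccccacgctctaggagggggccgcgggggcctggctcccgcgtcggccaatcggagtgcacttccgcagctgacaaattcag

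The Fos window holds the CREB core at -129 to -125 and at -66 to -62 from the start and a TATA box at -33 to -28. In Dusp1 the full CREB site lies at -143 to -136. RefSeq promoter entries matched 27 of the 36 members, with 33 windows in all. The core CGTCA was in 20 of these 33 windows (60.6%), against 17.8% of the 32851 windows of all genes. The full site TGACGTCA was in 3 member windows (9.09%), Btg2, Dusp1 and Maff, against 1.55% of all. The serum response element, searched by its CArG pattern, was in 6 windows (18.2%), of Dusp5, Egr2 and Zfp36, against 1.47% of all. The AP-1 site TGANTCA was in 0 member windows and in 6.75% of all, the Egr site GCGTGGGCG in 3.03% against 0.536%, and TATAAA in 12.1% against 12.4%. All motifs were read on both strands, several windows belong to 1 gene, and a match describes letters only.

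Most immediate early genes measured lower in HD_miR196a mice than in HD mice, 30 of 36, and the median of the 36 differences was -0.16 on the log2 scale, but no member passed the test. Over all genes 51.0% were lower and the median difference was 0.00. Of the transcription factors 15 of 19 were lower, with a median difference of -0.17, and of the effectors 15 of 17, with a median of -0.15, a contrast that carries no test. The count and the median depended on single animals. Without HD mouse 2, 13 of the 36 were lower, the median was 0.05, and 19 members changed sign, among them Egr1, Arc, Dusp1 and Junb. Without HD_miR196a mouse 1, 23 were lower, the median was -0.09 and 9 members changed sign. Without HD mouse 1 it was 31 of 36 and the median -0.48, and without HD_miR196a mouse 2 or mouse 3 it was 30 of 36 and -0.26 in each case. The genes were proposed with earlier results of these data known, so these counts are a description.

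With limma, 0 of the 26423 probes of the array (0%) had a Benjamini-Hochberg adjusted p under 0.05, members included. At an unadjusted p under 0.05 there was 1 member of 36, Dusp5, against 4.16% of all probes. The groups did not overlap, with HD_miR196a mice lower, for 3 members (Dusp5, Klf4 and Atf3) out of 36, where 10.7% of all genes did so. They did not overlap with HD_miR196a mice higher for 0 members, against 10.0% of all genes. The plot of differences shows how wide the intervals were.

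**Figure D1:**
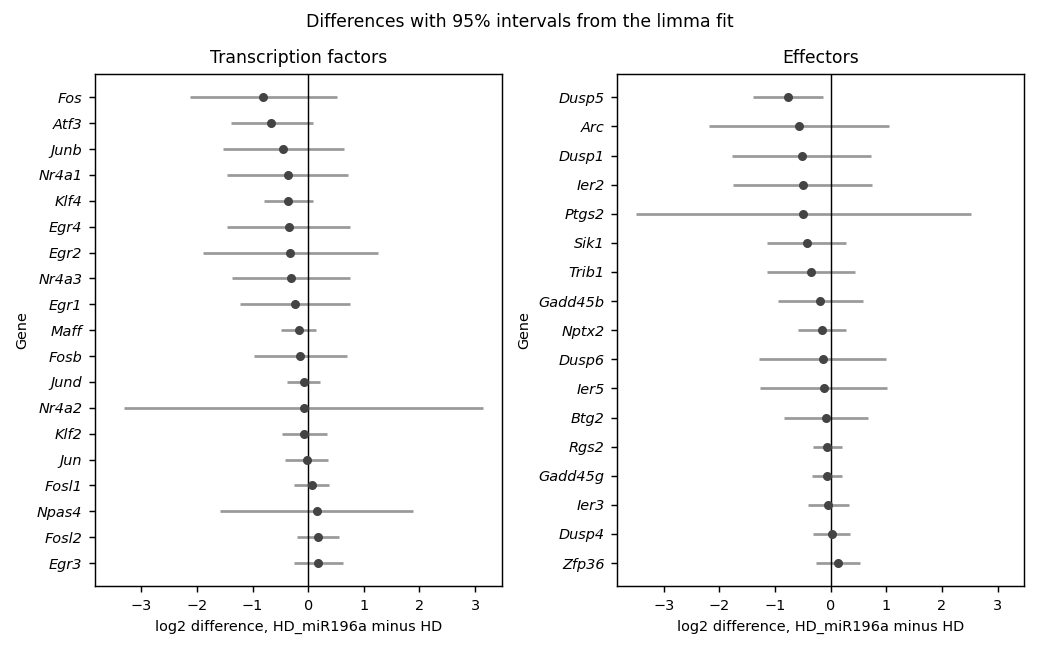
Points give the log2 difference, HD_miR196a minus HD (3 and 2 mice), of each of the 19 transcription factors (left) and 17 effectors (right), and bars the 95% interval from the limma fit over all probes. The interval of Dusp5 runs from -1.39 to -0.13, every other interval includes 0, and that of Nr4a2 reaches from -3.31 to 3.15.

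As a measure of background, the 544 probes of olfactory receptor genes, mostly silent in striatum, had log2 levels with a 95th percentile of 8.31. Of the members 20 lay above it, 12 transcription factors and 8 effectors, and 16 lay below. Among the 20 brighter members 17 were lower in HD_miR196a mice, with a median of -0.14, and among the 16 dimmer ones 13 were lower, with a median of -0.24. All 3 members whose groups did not overlap were among the dimmer ones. Deposited medians of the arrays were 160.0 to 166.3 in HD_miR196a mice and 184.3 to 185.6 in HD mice before quantile normalization. The tissue label was checked on markers of medium spiny neurons, the main striatal neuron type. Of 18 such genes 14 were measured and 13 of these lay above background, Penk at 15.04 to 15.25 in HD_miR196a mice and 14.73 to 14.76 in HD mice, while Drd2 read 0.00 to 2.04, close to the floor of the scale, in every mouse. These markers were higher in HD_miR196a mice for 12 of 14, with a median difference of 0.35. In whole tissue, fewer cells of a type and less RNA per cell cannot be told apart.

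The Fos family forms AP-1 dimers with the Jun family. Fos, its best known member and a common marker of recently active neurons, had log2 levels of 9.06, 9.34 and 10.28 in HD_miR196a mice 1, 2 and 3, against 9.83 and 10.91 in HD mice 1 and 2, the order of mice kept throughout. HD mouse 2 was highest, and HD_miR196a mouse 3 lay between the HD mice. The difference was -0.81 ± 0.50 (SE), a fold of 0.572, with a limma adjusted p of 0.979. Fosb, whose splice form deltaFosB accumulates in striatum with repeated stimulation, was at 8.97, 9.42 and 8.73 in HD_miR196a mice against 8.79 and 9.56 in HD mice. Its difference was -0.14 ± 0.32, and the groups overlapped. Fosl1 and Fosl2, which encode Fra-1 and Fra-2, differed by 0.06 ± 0.12 and 0.17 ± 0.15, and for Fosl2 HD mouse 2 was the lowest of the 5.

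Junb followed Fos. It measured 9.25, 9.74 and 10.16 in HD_miR196a mice against 9.65 and 10.68 in HD mice, a difference of -0.45 ± 0.42 (SE). A dimmer second Junb probe differed by -0.41, with HD mouse 2 again highest. Jun and Jund, the other AP-1 partners, varied far less. Jun was at 9.92, 10.24 and 10.29 in HD_miR196a mice against 10.16 and 10.19 in HD mice (difference -0.03 ± 0.15). Jund differed by -0.08 ± 0.11 (95% interval -0.38 to 0.22).

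Egr1, a zinc finger transcription factor also known as Zif268, had values of 13.82, 14.20 and 14.43 in HD_miR196a mice and 13.84 and 14.94 in HD mice. HD_miR196a mice 2 and 3 lay between the HD mice, and the difference was -0.24 ± 0.38 (SE). Egr4 was at 10.13, 10.50 and 10.71 in HD_miR196a mice against 10.16 and 11.44 in HD mice. Egr2 measured 8.08, 7.77 and 8.24 in HD_miR196a mice against 7.36 and 9.32 in HD mice, so that all 3 lay inside the gap of 1.96 between the HD mice. That probe was below the background percentile on average, as was Egr3, which differed by 0.18 ± 0.17 and in which HD mouse 2 was not raised (7.45, against 7.53 in HD mouse 1).

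The Nr4a genes encode orphan nuclear receptors. Nr4a1, or Nur77, measured 11.22, 11.31 and 11.89 in HD_miR196a mice and 11.27 and 12.43 in HD mice, a difference of -0.37 ± 0.42 (SE). Nr4a2, or Nurr1, was at 7.64, 10.33 and 9.88 in HD_miR196a mice against 7.86 and 10.87 in HD mice. Mouse 1 of each group was thus low and the other 3 mice high, and the group difference was -0.08 ± 1.24. A second Nr4a2 probe gave 7.57, 9.80 and 9.45 in HD_miR196a mice against 8.06 and 10.45 in HD mice, the same order of mice. Nr4a3 stayed below background on both probes. Npas4, a neuronal bHLH-PAS factor induced by calcium entry, measured 8.56, 10.35 and 10.12 in HD_miR196a mice against 8.99 and 10.07 in HD mice. As with Nr4a2 the low values were those of mouse 1 in each group, but HD mouse 2 was not the highest, and the difference was 0.15 ± 0.67.

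The remaining transcription factors were dim. Klf4, a Krüppel-like factor, was at 7.31, 6.95 and 7.24 in HD_miR196a mice against 7.37 and 7.69 in HD mice, a difference of -0.36 ± 0.17 (SE, limma adjusted p 0.979) with no overlap. Atf3, a stress-induced bZIP factor, was at 2.53, 2.27 and 3.06 in HD_miR196a mice against 3.49 and 3.07 in HD mice, levels at which this array has little to measure. Klf2 differed by -0.07 ± 0.15 and Maff, a small Maf protein, by -0.17 ± 0.12.

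**Figure D2:**
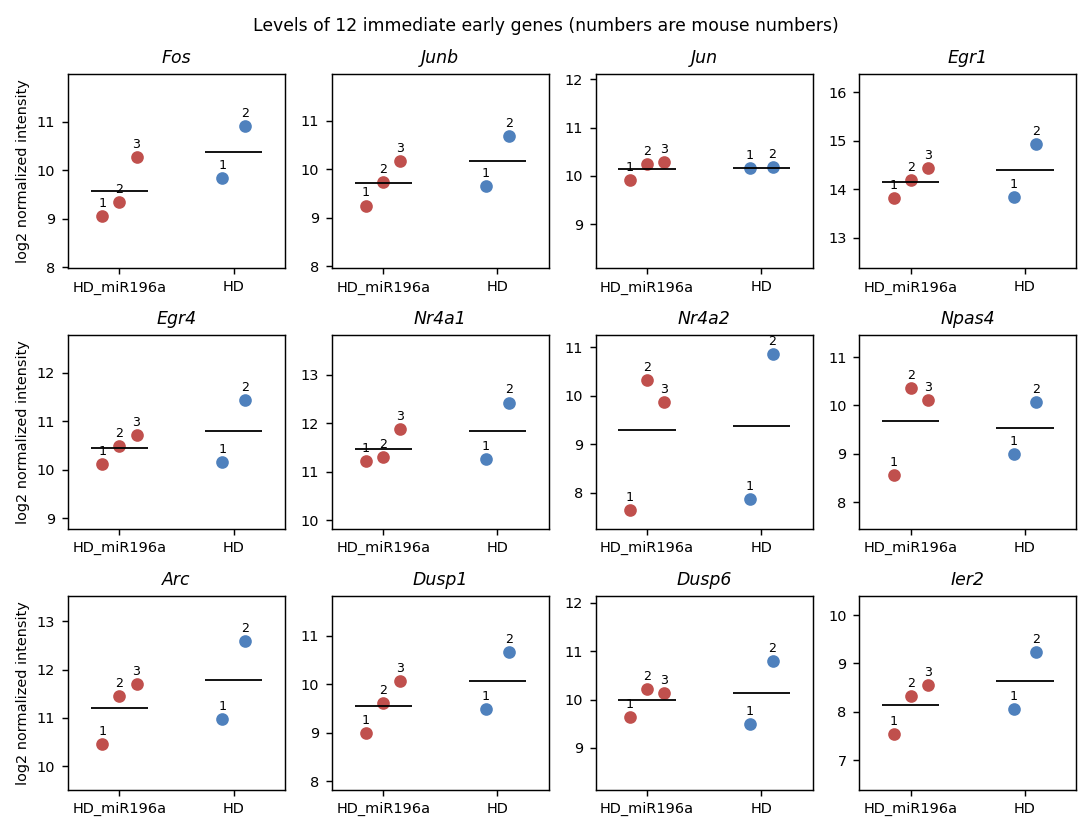
Log2 normalized intensity of 12 immediate early genes in each mouse, with HD_miR196a mice in red on the left, HD mice in blue on the right, mouse numbers above the points and lines at the group means; every panel spans 4 log2 units. HD mouse 2 is the highest point for 10 of these 12 chosen genes, all but Jun and Npas4, and was highest for 20 of all 36 members. For Nr4a2 the points of mouse 1 in both groups (7.64 and 7.86) lie apart from the other 3.

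Among the effectors, Arc encodes a cytoskeletal protein that drives removal of AMPA receptors from synapses. It measured 10.46, 11.46 and 11.71 in HD_miR196a mice and 10.98 and 12.58 in HD mice. HD mouse 2 was highest and HD_miR196a mouse 1 lowest, and the difference was -0.57 ± 0.62 (SE), a fold of 0.674, with a limma adjusted p of 0.979. Ptgs2, which encodes the inducible prostaglandin synthase COX-2, was at 4.66, 7.47 and 7.21 in HD_miR196a mice against 5.77 and 8.10 in HD mice. Mouse 1 of each group was low, as for Nr4a2, at levels below the background percentile.

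The Dusp phosphatases switch off MAP kinases. Dusp1 was at 8.99, 9.61 and 10.07 in HD_miR196a mice against 9.49 and 10.66 in HD mice, a difference of -0.52 ± 0.48 (SE). Dusp6, which acts on ERK, was at 9.63, 10.22 and 10.14 in HD_miR196a mice against 9.49 and 10.79 in HD mice, where all 3 HD_miR196a mice lay between the HD mice. Dusp5, the member with the smallest p, was at 4.52, 4.94 and 5.10 in HD_miR196a mice against 5.38 and 5.84 in HD mice. The difference was -0.76 ± 0.24 with an unadjusted limma p of 0.0271 and an adjusted p of 0.979, at levels well under the olfactory receptor percentile. Dusp4 differed by 0.02 ± 0.12.

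Ier2, a nuclear protein induced with Fos, was at 7.55, 8.32 and 8.55 in HD_miR196a mice against 8.05 and 9.24 in HD mice, a difference of -0.50 ± 0.48 (SE). Its second, dimmer probe differed by -0.02. Ier5 was at 8.74, 9.58 and 9.32 in HD_miR196a mice against 8.75 and 9.92 in HD mice, and Ier3 differed by -0.04 ± 0.14. Gadd45b, a stress sensor linked to DNA demethylation in neurons, was at 8.48, 9.12 and 9.09 in HD_miR196a mice against 8.78 and 9.38 in HD mice. Its relative Gadd45g varied little, at 10.53, 10.69 and 10.54 in HD_miR196a mice against 10.70 and 10.59 in HD mice, as did Rgs2, a regulator of G protein signalling, which differed by -0.06 (95% interval -0.32 to 0.20).

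The other 5 effectors lay below the background percentile. Sik1, a kinase that restrains CREB coactivators, differed by -0.43 ± 0.27 (SE), the pseudokinase gene Trib1 by -0.35 ± 0.30, and Nptx2, a secreted pentraxin that clusters AMPA receptors, by -0.15 ± 0.16. On a dimmer probe Trib1 differed by -0.03. Btg2, an antiproliferative gene, had a difference of -0.08 ± 0.29, and of 0.18 on a dimmer probe. Zfp36, whose product promotes decay of AU-rich mRNAs, was higher by 0.13 ± 0.15, with HD mouse 2 lowest.

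Differences between animals of 1 group were large for the members. The HD mice differed by a median of 0.44 over the members and 0.18 over all genes, in absolute log2 units, and the range within the HD_miR196a mice had a median of 0.59 over the members and 0.27 over all genes. HD mouse 2 was the highest of the 5 mice for 20 of the 36 members, against 20.7% of all genes, and HD_miR196a mouse 1 the lowest for 21, against 22.7% of all genes. Both held for 15 members (41.7%) and for 8.83% of all genes. The difference between the HD mice was larger than the group difference for 27 of the 36 members, where 63.9% of all genes show this. HD mouse 2 exceeded HD mouse 1 by more than 1 on the log2 scale for 12 of the 20 brighter members (60.0%) and for 1.10% of the 8662 genes above background. These patterns were picked after the values were seen.

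**Figure D3:**
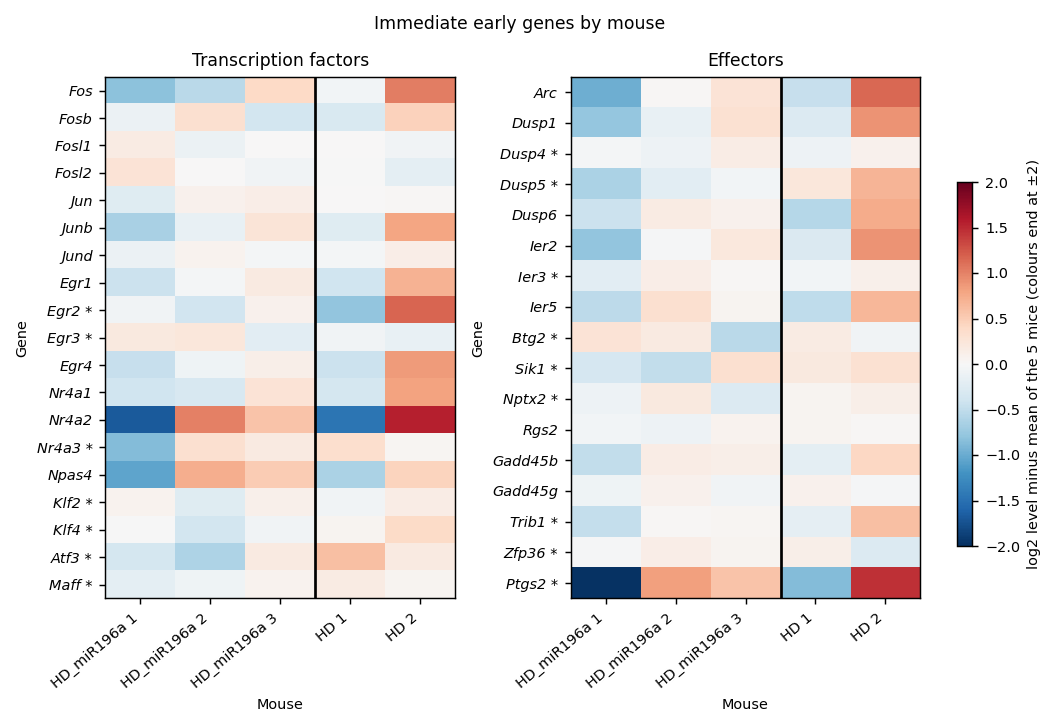
Each cell is the log2 level of a gene in 1 mouse minus that gene's mean over the 5 mice, for transcription factors (left) and effectors (right), with HD_miR196a mice left of the black line and HD mice right of it; an asterisk marks genes below the background percentile. The column of HD mouse 2 is mostly red and that of HD_miR196a mouse 1 mostly blue, with median deviations of 0.39 and -0.34 over the 36 genes.

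The same genes varied inside both groups. Of the 20 brighter members 15 were higher in HD mouse 2 than in HD mouse 1 and also higher in HD_miR196a mouse 3 than in HD_miR196a mouse 1, against 28.7% of genes above background. Fosb was higher in HD mouse 2 than in HD mouse 1 but not in HD_miR196a mouse 3. Jund, Jun, Rgs2, Gadd45g, Fosl1 and Fosl2, all above background, differed by 0.18 or less between the HD mice, so a bright probe alone did not go with a large difference. The HD and HD_miR196a animals of this comparison are separate mice, but the HD_miR196a pair used is the one that differed most over the members. Over all 36 members the median of mouse 1 minus mouse 3 was -0.52. It was -0.31 for mouse 1 minus mouse 2 and -0.09 for mouse 2 minus mouse 3. The match of the groups is thus a description and carries no test.

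**Figure D4:**
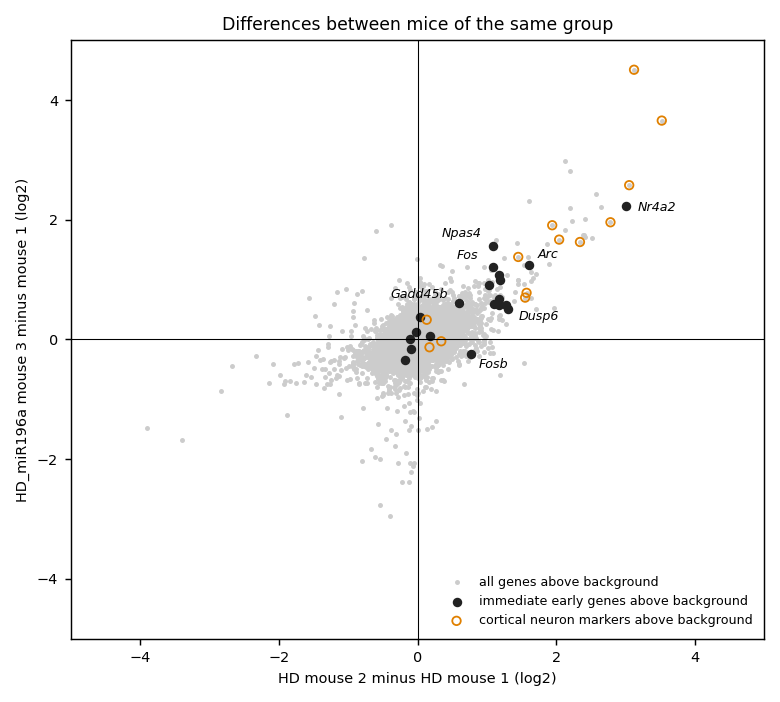
For genes above background, the horizontal axis gives HD mouse 2 minus HD mouse 1 and the vertical axis HD_miR196a mouse 3 minus HD_miR196a mouse 1, both in log2 units; grey points are all genes (3 lie outside the axes), black points the 20 brighter immediate early genes and orange circles 13 cortical neuron markers. Most black points lie in the upper right, from Gadd45b to Nr4a2, in the direction of the orange circles, while a cluster of 6 sits near 0.

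Markers of cortical projection neurons, which a dissected striatum can carry from the tissue above it, were set beside the members mouse by mouse. The median deviation of these markers was lowest in HD_miR196a mouse 1 and highest in HD mouse 2, as for the members. HD mouse 1 was at -0.85 over these markers and at -0.07 over the members. HD_miR196a mice 2 and 3 were at 0.55 and 0.34 over these markers, and at 0.02 and 0.10 over the members. Over the 20 brighter members alone, HD mouse 1 was at -0.28 and HD_miR196a mice 2 and 3 at 0.02 and 0.13. Of 19 cortical marker genes 18 were measured and 13 lay above background, and none was listed at 0. Their summed intensity was 25582 to 61604 in HD_miR196a mice and 24350 to 70070 in HD mice, lowest in mouse 1 of each group. The summed intensity of the 36 members was 32152 to 48308 in HD_miR196a mice and 34406 to 68263 in HD mice. It was also lowest in mouse 1 of each group, and Egr1, the brightest member, weighs most in it. Slc17a7, the cortical vesicular glutamate transporter, measured 8.47, 11.76 and 11.05 in HD_miR196a mice against 8.82 and 11.87 in HD mice, and Tbr1 11.33, 13.57 and 12.97 in HD_miR196a mice against 11.35 and 13.69 in HD mice. That order of mice is the one seen in Nr4a2, Ptgs2, Ier5 and Gadd45b. Junb, Arc and Dusp1 also had mouse 1 of each group at the low end and HD mouse 2 highest, with HD_miR196a mice 2 and 3 exchanged. In Fos, HD_miR196a mouse 2 (9.34) lay below HD mouse 1 (9.83), and in Npas4 HD mouse 2 was not the highest. The part of these cells in the immediate early gene values was not tested.

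Set animal against animal, the direction depended on the pair. Against HD mouse 2, members were lower in HD_miR196a mice 1, 2 and 3 for 31, 26 and 26 of 36, with median differences of -0.77, -0.37 and -0.42. Against HD mouse 1 they were lower for 27, 11 and 13 of 36, with medians of -0.15, 0.10 and 0.15. Of the HD_miR196a mice, then, mouse 1 was lower than either HD mouse for most members, and mice 2 and 3 were lower than HD mouse 2 for most but higher than HD mouse 1 for most. These pairs share animals and carry no test.

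Markers of other cell types were summed in the same way. The summed intensity of 9 microglial markers was 16565 to 18887 in HD_miR196a mice and 18451 to 20719 in HD mice, and that of 11 endothelial markers 5796 to 5974 in HD_miR196a mice and 5682 to 5947 in HD mice. Oligodendrocyte markers ran the other way across the mice: the sum of 11 genes was 64943 to 87365 in HD_miR196a mice and 55382 to 72220 in HD mice, highest in HD_miR196a mouse 1 and lowest in HD mouse 2. Astrocyte markers summed to 139887 to 151504 in HD_miR196a mice and 142528 to 144164 in HD mice, although their member Slc1a3 was at the floor in HD mouse 1. The part of these cell types in the result was not tested.

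A wider list of 40 activity-induced genes, of which 35 were measured, also had its highest values in HD mouse 2, while the low end was shared. HD mouse 2 was the highest of the 5 mice for 22 of the 35, against 20.7% of all genes, and HD_miR196a mouse 1 the lowest for 14, against 22.7% of all genes. Median deviations from the gene means were -0.16 in HD_miR196a mouse 1 and -0.13 in HD mouse 1. Of the 35 genes 25 were lower in HD_miR196a mice, with a median difference of -0.11 and 0 past the test in either direction (smallest unadjusted p 0.0581). Nfkbia, the inhibitor of NF-kappaB, was at 11.02, 11.24 and 11.43 in HD_miR196a mice against 11.57 and 11.63 in HD mice, without overlap. Of the 35 genes 3 were lower in HD_miR196a mice without overlap, where 10.7% of all genes were. Another 2 were higher without overlap, where 10.0% of all genes were. Fbxo33 differed by -0.30 ± 0.13 (SE) and Errfi1, a feedback inhibitor of the EGF receptor, by -0.26 ± 0.12, while the kinase gene Pim1 differed by 0.30 ± 0.15. Of 37 listed genes that relay the signal to the immediate early promoters, 34 were measured, 16 lower and 18 higher in HD_miR196a mice, with a median difference of 0.04 and 0 past the test. HD mouse 2 was above HD mouse 1 for 25 of the 34, as it was for 26 of the 36 members and for 46.05% of all genes, by a median of 0.18 over the relay genes and 0.39 over the members. The lists were not tested against each other. Rasgrp2, a striatal activator of Rap1, differed by 0.76 ± 0.18 and is also a medium spiny neuron marker. Elk3 differed by -0.41 ± 0.15, at levels below the background percentile (4.65 to 5.05 in HD_miR196a mice, 5.24 and 5.32 in HD mice).

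**Figure D5:**
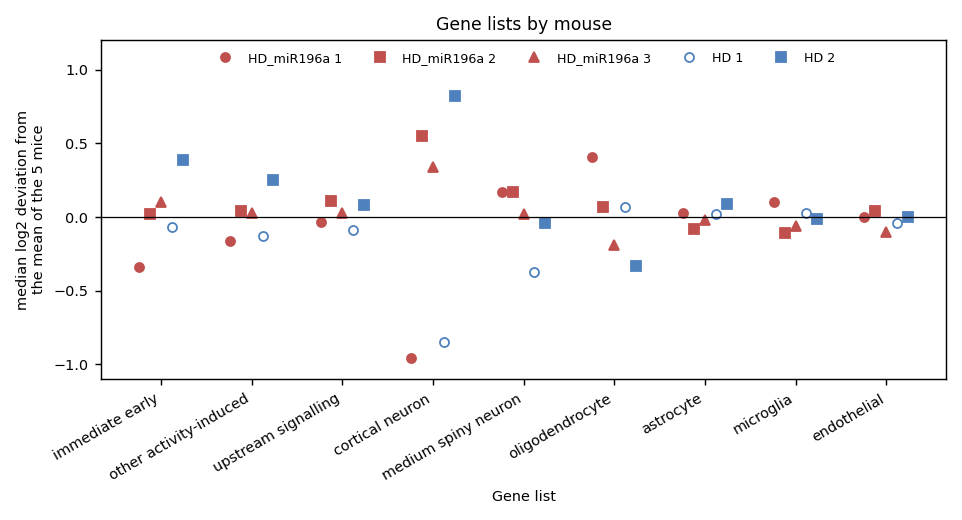
For each gene list on the horizontal axis, points give the median over its genes of the log2 deviation from the mean of the 5 mice, with HD_miR196a mice in red and HD mice in blue. Immediate early genes run from -0.34 (HD_miR196a mouse 1) to 0.39 (HD mouse 2), and cortical neuron markers from -0.96 to 0.82 with mouse 1 of each group at the low end.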

How the data were processed

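Per the labels' protocols, amplified total RNA carried the dye Cy5, and each deposited column combines 2 technical repeats of 1 mouse, so the mouse is the replicate. The values deposited by the authors are linear intensities for 26423 probes. Values slightly below 0 show that background had been subtracted, while no scanner, software or scaling is stated in the labels. Quantile normalization, a floor of 1 and log2 were applied here, and all probes were fitted with limma 3.58.1 in R 4.3.3 (lmFit, eBayes, 3 residual degrees of freedom), two-sided, with Benjamini-Hochberg adjustment over all probes. Precision is limited by the number of arrays. With 3 against 2 mice the smallest p of an exact permutation is 0.1. Nothing says that the mice came from separate litters.

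Of the probes, 18213 matched a RefSeq symbol (GRCm38.p6), 2126 a synonym, 38 neither, and 6046 had no symbol. All 36 members may be named, with up to 4 genes of the smallest p and the leading markers of each other list. The members and lists were chosen with earlier results of these data known. Alternatives were median centring, no scaling, a higher floor (32.7), the 13212 brighter probes, trend and robust eBayes, the mouse number as a block, mice left out, and averaging a gene's probes.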

Additional observations from a re-analysis of the deposited data

How the results depend on the processing

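The count of 0 called probes became 2 with the higher floor and 3 with trend and robust settings, and ran from 0 to 3 with 1 mouse left out, while 0 members were called under each of the 13 alternatives. With 1 mouse left out, the number of members lower in HD_miR196a mice ran from 13 (without HD mouse 2) to 31, and their median difference from -0.48 (HD mouse 1 left out) to 0.05 (HD mouse 2 left out). Fits with a single HD mouse take its spread from the other group. Without HD_miR196a mouse 1, 23 were lower and the median was -0.09. Without scaling 35 of 36 were lower and the median was -0.37, as all probes shifted by -0.20. Median centring gave 30 and -0.20. The brighter probes held 25 members, 21 of them lower. Without mouse 1 of each group the median was -0.41, with 28 lower, and HD mouse 2 was the only HD mouse left. With the mouse number as a replicate block the median was -0.26, 30 were lower and 0 were called. In that limma fit 10 members had an unadjusted p under 0.05, as did 2020 of the 26423 probes. HD_miR196a mouse 3 shares its number with no HD mouse, so the block gave the same member differences as leaving that mouse out. The block also left fewer residual degrees of freedom than the 3 of the main fit. Deviations of equally numbered mice correlated at 0.236 and 0.17 over probes, but only 2 numbers are shared and the labels do not pair the mice. Of 457 member values under alternatives, 406 kept their sign and 51 changed it, 19 of these without HD mouse 2 and 9 without HD_miR196a mouse 1, none with a call. The trend and robust fit (36 values) and the brighter probes (25 values) repeat the main differences, so no sign could change there. The block values are those without HD_miR196a mouse 3 counted again, so the share of signs kept overstates stability. Low signal limits the 16 members below the background percentile.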
